A study of Rattus norvegicus with 145 samples.

Results

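The transcripts of 10 genes of serine synthesis, one-carbon metabolism and the amino acid stress response were followed in the liver of rats gavaged with acetamide. The genes were Phgdh, Psat1, Psph, Shmt2, Mthfd2, Asns, Trib3, Ddit3, Fgf21 and Atf5, taken by symbol from count tables of 17337 genes, and all 10 were listed in each of the 5 tables. They had been picked with their levels against dose already known, so their dose responses are given here as a description, without p-values. Where a dose response is said to meet or miss the criteria given below, that label comes from a test on values already known. No conclusion is drawn from it. For these genes p-values are given for differences between vehicle control groups. The levels of the same control rats were part of what was known when the genes were picked, so these p-values are not free of that choice. The lists of other pathway genes, whose members were tested, had likewise been drawn up with results of these data known.

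Serine is made from the glycolytic intermediate 3-phosphoglycerate by 3 enzymes in turn, phosphoglycerate dehydrogenase (Phgdh), phosphoserine aminotransferase (Psat1) and phosphoserine phosphatase (Psph). The mitochondrial enzymes Shmt2 and Mthfd2 then pass carbon from serine to folate for the synthesis of nucleotides. When amino acids run short or proteins misfold, eIF2 kinases slow translation while favoring that of ATF4, a transcription factor known to act on asparagine synthetase (Asns), the pseudokinase gene Trib3, the CHOP gene Ddit3, the fasting hormone gene Fgf21 and the transcription factor gene Atf5. In liver, dietary protein and fasting are known to set the level of several of these genes.

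ATF4 binds with C/EBP partners to a composite element, so the RefSeq promoters of the genes (GRCr8 assembly, from 250 bases before to 50 bases after the start) were searched on both strands for TGATGNAAN. All 10 genes had 1 promoter in the table. The letters occurred in 2 of them, Fgf21 and Trib3, and in 1328 of all 33469 promoters (3.97%). The core TGATGCAA, which lies inside the first motif where it matches, was found in Fgf21 alone among the 10 and in 0.795% of all promoters. Those 2 promoters are shown because they carry the match, and that of Phgdh because it is the gene that the results below turn on. Capitals mark the match, which in both cases reads TGATGNAAN on the opposite strand and begins 144 (Fgf21) and 22 (Trib3) bases before the start.
Fgf21 (chr1:105221327-105221626, minus strand): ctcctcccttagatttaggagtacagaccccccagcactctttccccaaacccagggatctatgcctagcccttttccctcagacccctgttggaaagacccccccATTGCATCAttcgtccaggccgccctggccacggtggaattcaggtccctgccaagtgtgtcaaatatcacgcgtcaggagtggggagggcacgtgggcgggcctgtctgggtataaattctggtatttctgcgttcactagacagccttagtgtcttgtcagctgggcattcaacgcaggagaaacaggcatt
Trib3 (chr3:161275484-161275783, minus strand): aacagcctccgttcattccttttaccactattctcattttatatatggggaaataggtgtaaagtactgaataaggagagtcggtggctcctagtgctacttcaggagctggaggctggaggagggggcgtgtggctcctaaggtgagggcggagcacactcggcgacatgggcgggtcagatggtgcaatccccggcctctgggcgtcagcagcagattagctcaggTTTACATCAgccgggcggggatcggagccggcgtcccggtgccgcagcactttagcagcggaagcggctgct
Phgdh (chr2:188624740-188625039, minus strand): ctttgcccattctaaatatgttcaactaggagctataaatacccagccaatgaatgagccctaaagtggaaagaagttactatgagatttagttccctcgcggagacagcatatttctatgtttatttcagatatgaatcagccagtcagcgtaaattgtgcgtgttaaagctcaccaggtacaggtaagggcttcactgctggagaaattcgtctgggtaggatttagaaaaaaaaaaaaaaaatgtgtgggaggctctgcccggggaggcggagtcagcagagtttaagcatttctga
Absence of the letters from Phgdh and the other 7 promoters says only that they are not in this window.

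Experiment A held male Hsd:WI rats of 9 to 10 weeks given the vehicle alone or acetamide at 30, 100, 300 and 1000 mkd (mg per kg body weight per day) and killed on day 8, after 7 daily doses. Experiment B held male and female Crl:WI rats of 8 to 10 weeks given 0, 300, 500, 750, 1000 or 1500 mkd and killed on day 8 or, after 28 doses, on day 29. Each of the 29 groups had 5 rats (145 in all, 60 of them female), controls received the water vehicle by gavage, and all rats were fasted overnight before the left liver lobe was taken. The sets are called experiment A, males day 8, males day 29 and, likewise for the other sex, females day 8 and females day 29, and values for all 5 sets are listed in this order. Strain, supplier and study differ between experiments A and B and cannot be told apart. For the vehicle rats of males day 29 the exposure label points to experiment A, but title and strain belong to B, and they were used there.

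Reads on genes numbered 15449716 to 39986531 per rat, and levels are CPM, a gene's counts relative to these reads with TMM scaling of the library size. All 10 genes passed the filter on low counts in every set, but Phgdh and Mthfd2 were sparse in females, down to 2 and 5 counts in a rat. No hepatocyte marker of 10 was at 0. At 1000 mkd in experiment A their summed level was 77071 to 247794 CPM, below every control rat (253383 to 338892), 4 of 10 fell, and 9 of 10 tested T and NK cell markers and 7 of 12 macrophage markers rose. Likewise in females day 29 the hepatocyte sum was 93546 to 196269 CPM at 1500 mkd against 197056 to 382177 CPM in controls, 1 of 10 hepatocyte markers rose and 2 fell, and 4 of 12 macrophage and 2 of 9 tested T and NK cell markers rose. In bulk liver, fewer cells of a type and less RNA per cell cannot be told apart, and the part of these shifts in the results below was not tested. Control replicate 5 of males day 29 stood apart, with the highest level of its group for 8 of the 10 genes, and control replicate 1 of experiment A did so for 7. In males day 8, control replicate 5 was the highest of its group for 5 of the 10. In replicate 3 of males day 29 at 1500 mkd the 26 cell cycle genes summed to 2093 CPM, and in the other 4 rats to 97.3 to 205 CPM.

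The criteria were the study's thresholds of a 1.5-fold change and a false discovery rate (FDR) of 0.05. The study applied them with DESeq2. Here edgeR was used unless DESeq2 is named, so meeting or missing them is not the study's own verdict. At the highest doses, 6 values of the 10 genes over the 5 sets met the criteria. They involved Ddit3, Trib3 and Atf5 in experiment A and Phgdh and Mthfd2 in females. At lower doses none met the criteria in any set by edgeR, where 0%, 0%, 0.884%, 0.354% and 0.452% of all gene and dose pairs did over the 5 sets. Because the dose response chose the genes, nothing is read from these counts. The share of all genes meeting the criteria at the highest dose was 21.4%, 0.177%, 4.91%, 0.705% and 13.1% over the 5 sets. Of these, 14%, 0.142%, 3.16%, 0.522% and 9.55% of all genes were higher and 7.45%, 0.0354%, 1.76%, 0.183% and 3.54% lower than in controls. Every treated rat stood above every control rat for 9.01%, 1.45%, 2.85%, 1.65% and 3.51% of all genes, and below every control rat for 7.22%, 1.1%, 3.95%, 1.06% and 2.63%.

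**Figure D1:**
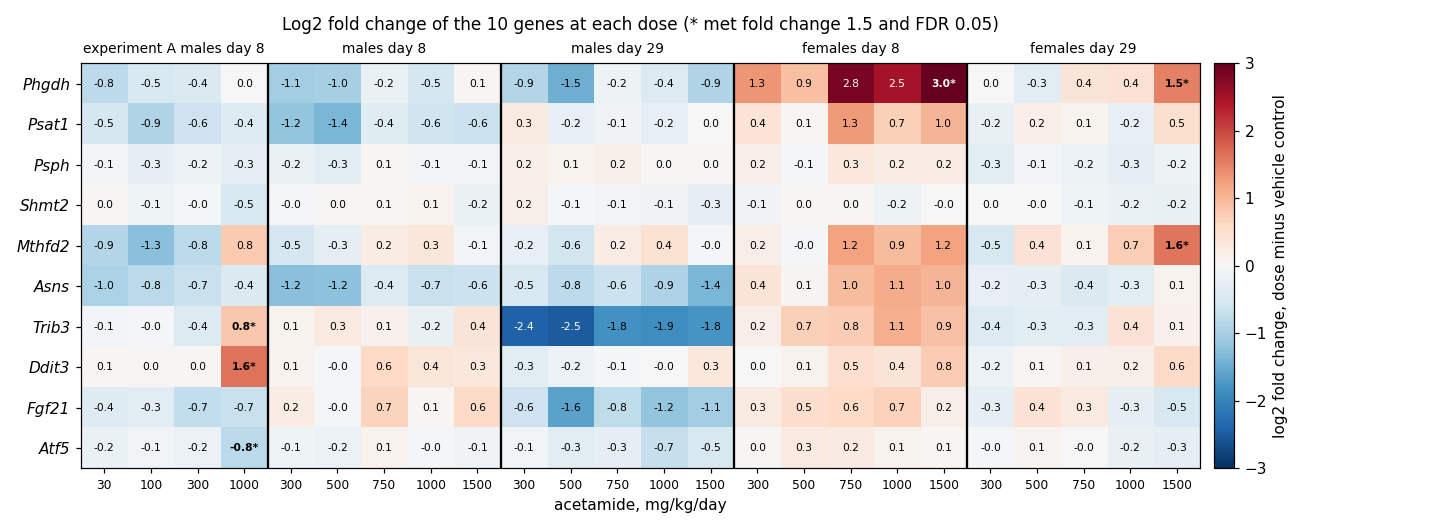
Log2 fold change of each of the 10 genes (rows) at each dose in mg/kg/day (columns, grouped by set) relative to the vehicle control, n = 5 rats a group, red higher and blue lower than control. Asterisks mark the 6 values that met the 1.5-fold and FDR criteria, all at the highest dose of a set, and most females day 8 values are positive while most of males day 29 are negative. In males day 29, control replicate 5 had the highest level of its group for 8 of the 10 genes.

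Phgdh, the first enzyme of the serine pathway, differed most between the sexes among the 10 genes in vehicle controls. In vehicle control males on day 8 the rats had 12.3, 8.71, 3.97, 4.95 and 21.9 CPM, and in control females 0.193, 0.546, 0.340, 0.193 and 0.466 CPM. The lowest male stood above the highest female. The share of all genes that separated the sexes in this way was not counted, so nothing is read from such separations here or below. Phgdh was 32.5-fold lower in females (log2 difference -5.02, SE 0.74, edgeR adjusted p = 9.37e-05 over 11224 genes). On day 29 control males had 3.55, 1.16, 0.726, 0.975 and 11.7 CPM, and control females 0.622, 0.229, 0.335, 0.326 and 0.520 CPM. These groups did not overlap either, although the gap between them was narrow, and the difference was 9.52-fold (log2 difference -3.25, SE 0.72, adjusted p = 0.00365). Without replicate 5 of each group, which takes out the control male at 11.7 CPM, the day 29 difference still met the criteria at a log2 value of -2.20.

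Of the 10 genes, 4 met the criteria for a sex difference in controls on day 8 and 1 on day 29, each of them lower in females. Of all genes, 7.98% and 11.8% met the criteria in either direction on these days, and the share lower in females was not counted. Psph, the last enzyme of serine synthesis, had 4.33 ± 0.589 CPM (SD, n = 5) in females and 7.36 ± 1.49 CPM in males on day 8, with no overlap (log2 difference -0.94, SE 0.19, adjusted p = 0.00182). Asns, which makes asparagine, had 1.63 to 2.98 CPM in females and 3.94 to 15.6 CPM in males, again without overlap (log2 difference -2.03, SE 0.50, adjusted p = 0.0113), and the criteria were missed without replicate 1 of each group. Mthfd2 had a median of 0.449 CPM in females and 1.47 CPM in males, and the groups overlapped (log2 difference -1.59, SE 0.45, adjusted p = 0.0256). Its difference missed the criteria without replicate 3 (-1.71) or replicate 5 (-1.23) of each group.

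Psat1, the middle enzyme of serine synthesis, was lower in females on day 8 by a log2 value that did not pass the test with edgeR (-1.25, SE 0.44, adjusted p = 0.0750). Without replicate 5 of each group the edgeR value was -0.70 (SE 0.33), which did not pass either. With DESeq2 and all rats Psat1 met the criteria (-1.25, SE 0.43), so that DESeq2 called 5 of the 10 genes on day 8. It called 1035 of the 11224 genes for this difference. On day 29 it was at 2.92 ± 0.741 CPM in females and 2.25 ± 1.61 CPM in males (log2 difference 0.27, SE 0.44, adjusted p = 0.715). The stress response genes Trib3, Ddit3, Fgf21 and Atf5 and the folate gene Shmt2 did not meet the criteria on either day, with log2 differences from -1.34 (Trib3, day 29, SE 0.69) to 0.55 (Fgf21, day 8, SE 0.53). Without replicate 5 of each group the day 29 differences of Trib3 and Fgf21 turned from -1.34 to 0.64 and from -0.26 to 0.80. On day 29 Asns had a log2 difference of -1.21 (SE 0.50, adjusted p = 0.1) and Psph one of -0.53 (SE 0.18, adjusted p = 0.0514), which did not pass. Without replicate 2 of each group Asns met the criteria on day 29 as well (-1.54, SE 0.48). Without replicate 5 of each group its difference shrank to -0.52 (SE 0.43), which did not pass.

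**Figure D2:**
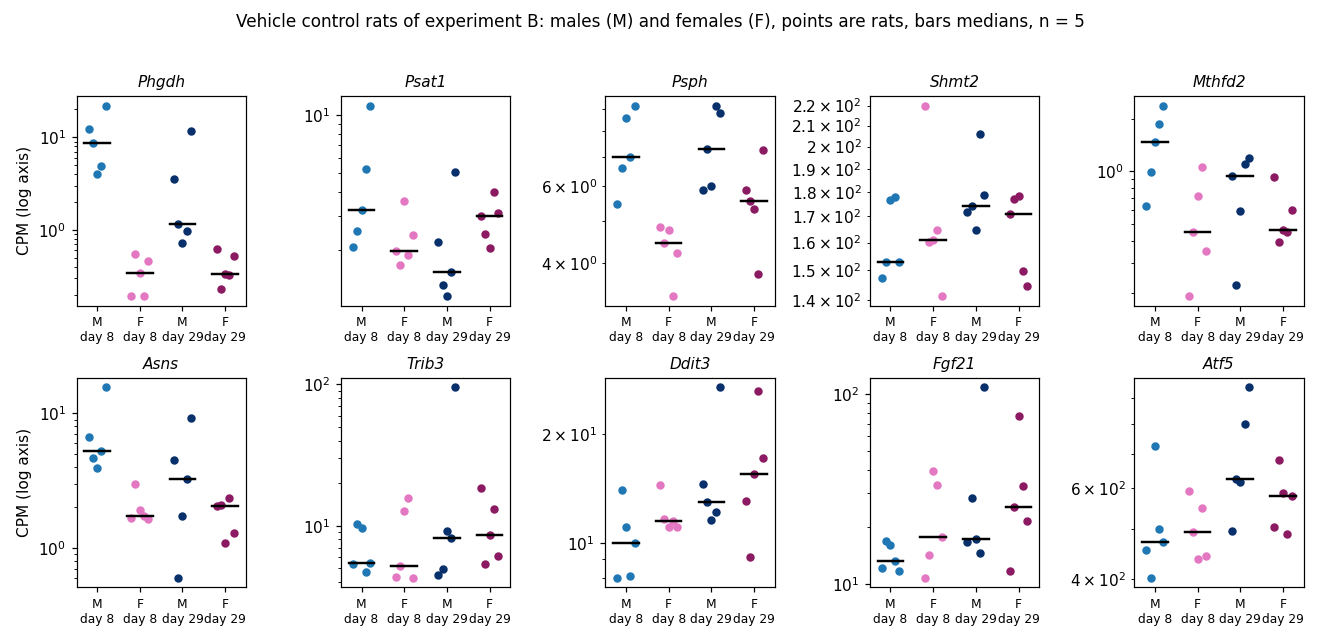
CPM (log axis) of each gene in the 20 vehicle control rats of experiment B, males (M, blue) and females (F, pink and purple) on day 8 and day 29, with points for rats and bars for medians of 5. Phgdh lies lower in every female than in every male on both days, and Psph and Asns do so on day 8. The share of all genes that do so was not counted.

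Between day 8 and day 29 control rats, none of the 10 genes met the criteria in either sex by edgeR or DESeq2, and 0.0356% (males) and 0.784% (females) of all genes did. In males 6 of the 10 had an unadjusted p under 0.05, as did 1198 of all 11224 genes, and in females 1 had. Phgdh went from a median of 8.71 CPM to 1.16 CPM in control males (log2 difference -1.50, SE 0.60, adjusted p = 0.397) and from 0.340 to 0.335 CPM in control females. Fgf21 was higher in control males on day 29 by a log2 value of 1.42 (SE 0.54, adjusted p = 0.387), and Trib3 by 1.78 (SE 0.70, adjusted p = 0.397). Both values include control replicate 5, whose 109 CPM of Fgf21 and 95.2 CPM of Trib3 were far above the other 4 rats, at 14.5 to 28.3 CPM and 4.49 to 9.20 CPM. Without replicate 5 of each group the Trib3 difference was -0.15.

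With acetamide, Phgdh in females moved up from its low control level. At 1500 mkd on day 8 the 5 females had 1.04, 4.58, 5.78, 2.05 and 0.653 CPM, each above the highest control female (0.546 CPM). This gave a log2 fold change of 2.98 (SE 0.72), which met the criteria. The medians were 0.600, 0.571, 2.03, 1.09 and 2.05 CPM from 300 to 1500 mkd, with 3, 3, 4, 5 and 5 rats above all controls, so the level did not climb evenly with dose. In this set 1.65% of all genes had every rat at 1500 mkd above every control rat, and 1.82% at 1000 mkd. The highest female, at 750 mkd, reached 6.54 CPM, which is within the range of control males on day 8.

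That value rested on 4 to 17 counts of Phgdh in the control females. The criteria were missed without any 1 of the 5 control rats or without treated replicate 2, 3 or 4, with a log2 fold change of 2.57 to 3.24 in those fits, and with the replicate block (3.06). Over the alternatives it lay between 2.55 and 3.34.

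On day 29 the females at 1500 mkd had 1.88, 0.983, 0.924, 1.11 and 0.936 CPM of Phgdh, all above the highest control female (0.622 CPM). The log2 fold change was 1.52 (SE 0.34), which met the criteria, and lay between 1.28 and 1.73 over the alternatives. In this set 3.51% of all genes had every treated rat above every control rat. At 1000 mkd and below the medians were 0.250 to 0.621 CPM, with at most 2 rats above all controls.

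In males Phgdh showed no such shift. Males day 8 had a median of 12.6 CPM at 1500 mkd (5.84 to 14.8 CPM) and 8.71 CPM in controls, with a log2 fold change of 0.05 (SE 0.46). At 300 and 500 mkd they had -1.05 (SE 0.47) and -0.99 (SE 0.47), which did not meet the criteria, with 1 rat below all controls at each dose. Males day 29 had 1.28 to 2.75 CPM at 1500 mkd, inside the control range of 0.726 to 11.7 CPM, and experiment A males had 3.32 to 7.01 CPM at 1000 mkd, inside the control range of 0.753 to 9.08 CPM. The difference of the 1500 mkd response between females and males was 2.92 on the log2 scale (SE 0.80) on day 8 and 2.44 (SE 0.82) on day 29. Neither met the criteria, and none of the 10 genes did in any of the 4 contrasts of the response between sexes or days, where 0%, 0.441%, 0% and 0.0169% of all genes did.

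**Figure D3:**
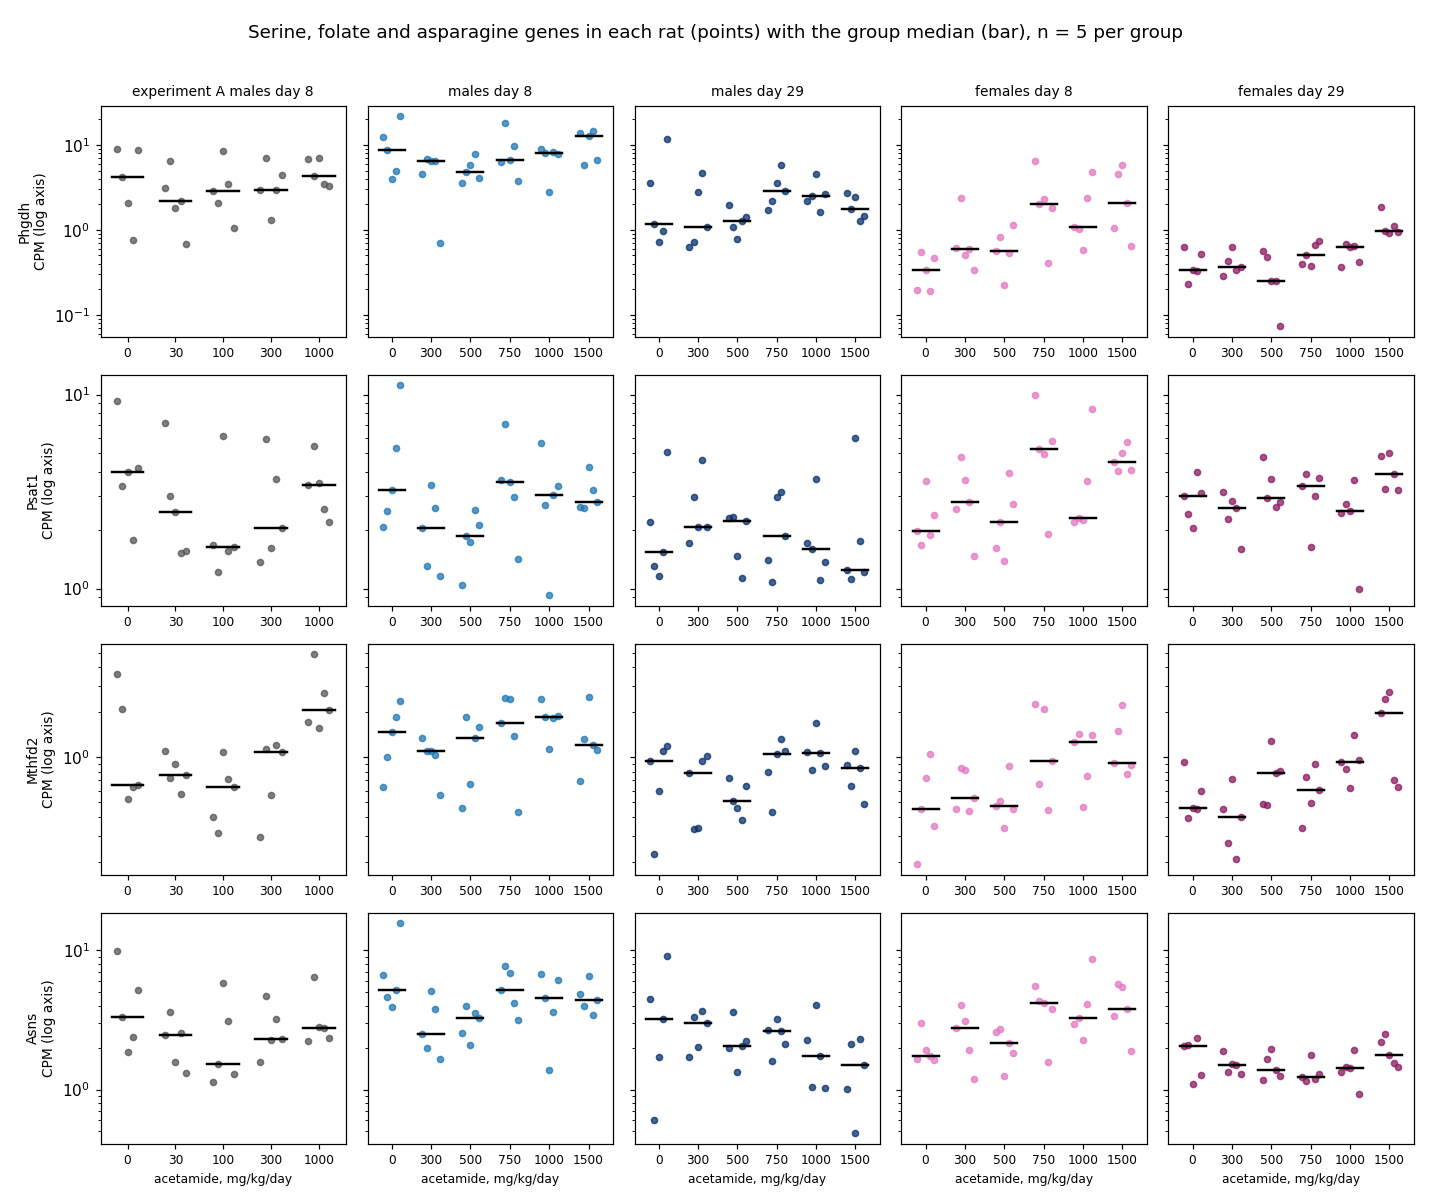
CPM (log axis) of Phgdh, Psat1, Mthfd2 and Asns in each rat against acetamide dose in mg/kg/day, 1 column per set, with points for rats and bars for medians of 5. Phgdh in females starts from medians of 0.340 and 0.335 CPM in controls and ends at 2.05 and 0.983 CPM at 1500 mkd, while in males the dose groups overlap the controls.

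Psat1 in females day 8 had 4.47, 4.02, 5.02, 5.69 and 4.09 CPM at 1500 mkd, each above the highest of the controls (1.67 to 3.57 CPM). With a log2 fold change of 1.02 (SE 0.39) it did not meet the criteria. At 750 mkd 4 of the 5 females lay above all controls (log2 fold change 1.27, SE 0.39), and at 1000 mkd 2 did. In females day 29 at 1500 mkd the value was 0.47 (SE 0.26), and in males day 8 and day 29 it was -0.64 (SE 0.42) and 0.02 (SE 0.46). At 300 and 500 mkd males day 8 had -1.18 (SE 0.44) and -1.38 (SE 0.44). At each of these doses 3 of 5 rats were below all controls, and the criteria were not met.

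Psph and Shmt2 moved little. Across all doses and sets the log2 fold change of Psph stayed between -0.31 and 0.32, and group means of Psph were 4.17 to 9.51 CPM. At 1000 mkd in experiment A Psph had 6.43 to 9.16 CPM against 7.51 to 12.4 CPM in controls. Without TMM factors these were 7.73 to 13.5 CPM and 7.19 to 12.1 CPM, so the direction of Psph there depended on the scaling. Shmt2, which splits serine to glycine and a folate-bound carbon, had group means of 136 to 204 CPM. The lowest of these was at 1000 mkd in experiment A, with 75.3 to 170 CPM against 164 to 220 CPM in controls (log2 fold change -0.45, SE 0.16), which did not meet the criteria. Without TMM factors the mean there was 180 CPM against 174 CPM in controls, so the direction depends on the scaling.

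Mthfd2, which oxidizes folate-bound carbon in mitochondria and is known for its high level in dividing cells, met the criteria in females day 29 at 1500 mkd. The rats had 1.97, 2.47, 2.72, 0.707 and 0.638 CPM, and controls 0.933, 0.393, 0.461, 0.448 and 0.600 CPM. The first 3 treated rats stood above all controls and the other 2 lay within them. Mthfd2 was 3.03-fold higher on average (SE 0.39 on the log2 scale), and the criteria were missed in the fit of control and 1500 mkd alone and in that without replicate 2 of every group (1.30). The 26 cell cycle genes of these rats summed to 148 to 405 CPM against 101 to 120 CPM in controls, and 25 of them rose. The part of dividing cells in Mthfd2 was not tested.

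In females day 8 Mthfd2 had a log2 fold change of 1.21 (SE 0.45) at 1500 mkd with 2 rats above all controls. In experiment A at 1000 mkd it had 1.57 to 4.88 CPM against 0.529 to 3.61 CPM in controls (log2 fold change 0.79, SE 0.46). Neither met the criteria, although the latter did without control replicate 1 (1.41, SE 0.44). In both male sets of experiment B the 1500 mkd value was close to 0, at -0.08 (SE 0.40) on day 8 and -0.03 (SE 0.37) on day 29.

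Asns did not meet the criteria at any dose in any set. In females day 8 the rats had 3.36, 5.74, 5.48, 3.79 and 1.899 CPM against 1.66, 2.98, 1.91, 1.73 and 1.63 CPM in controls, so that 4 of 5 were above all controls (log2 fold change 1.03, SE 0.37). In males day 29 they had 1.01, 2.11, 0.486, 2.31 and 1.49 CPM against controls that spanned 0.600 to 9.17 CPM (log2 fold change -1.38, SE 0.49). That value was -0.79 without control replicate 5, and -1.66, past the criteria, without control replicate 2. Males day 8 and females day 29 had -0.63 (SE 0.37) and 0.10 (SE 0.22).

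Ddit3 encodes CHOP, a transcription factor tied to cell death under prolonged stress, and it had the largest called change of the 10 genes in experiment A. At 1000 mkd the rats had 19.1, 79.0, 16.3, 31.9 and 33.1 CPM, and controls 11.1, 17.4, 10.7, 9.15 and 10.2 CPM. All but replicate 3 stood above every control rat. Its log2 fold change of 1.62 (SE 0.28) met the criteria, and was 1.11 (SE 0.19) without the rat at 79.0 CPM. At 300 mkd and below the log2 fold changes lay between 0.03 and 0.06.

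In experiment B Ddit3 did not meet the criteria in any set. Females day 8 had 11.5 to 26.4 CPM at 1500 mkd against 11.0 to 14.5 CPM in controls and 3 of 5 rats above all controls (log2 fold change 0.76, SE 0.24), and met the criteria without treated replicate 1 (0.93) or 5 (0.91). The other values at 1500 mkd were 0.31 (SE 0.18) and 0.32 (SE 0.20) in males on day 8 and day 29, and 0.56 (SE 0.28) in females day 29. The last ranged from 0.03 to 0.93 over the alternatives and met the criteria without replicate 4 of every group (0.93, SE 0.31), and it was 0.20 without treated replicate 2. Without control replicate 5, males day 29 had 0.59 (SE 0.17), which met the criteria.

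Trib3, whose product restrains AKT and ATF4 activity, had 9.15, 22.0, 12.0, 9.77 and 15.0 CPM at 1000 mkd in experiment A. The control rats had 9.19, 6.93, 6.84, 9.60 and 6.33 CPM, so 4 of 5 treated rats were above all controls, by little in 1 of them. Its log2 fold change of 0.81 (SE 0.30) met the criteria. It missed them without treated replicate 2 (0.56) or 5 (0.78), or without control replicate 1, 2, 3 or 5 (0.74 to 0.87), and with the replicate block (0.80). The rat of the highest Ddit3 level, treated replicate 2, was also that of the highest Trib3 level and had the largest TMM factor of all rats (1.91).

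In males day 29 the direction of Trib3 at 1500 mkd rested on 1 control rat. The log2 fold change at 1500 mkd was -1.78 (SE 0.65) with control replicate 5, at 95.2 CPM, and 0.06 (SE 0.45) without it. At 300 and 500 mkd Trib3 had -2.43 (SE 0.67) and -2.49 (SE 0.67), and -0.75 and -0.61 without replicate 5 of every group, while at 750 and 1000 mkd its values of -1.81 and -1.86 turned to 0.22 and 0.12. DESeq2 called it at 500 (-2.50) and 1000 mkd (-1.88). At 1500 mkd Fgf21 moved from -1.05 (SE 0.49) to -0.12 (SE 0.40) and Phgdh from -0.90 (SE 0.59) to 0.26 (SE 0.51) when control replicate 5 was left out. In females day 8 Trib3 had medians of 5.23 CPM in controls and 14.6 CPM at 1500 mkd, with 2 of 5 rats above all controls (log2 fold change 0.87, SE 0.48). In females day 29 and males day 8 it had 0.13 (SE 0.40) and 0.39 (SE 0.39).

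Fgf21, a hormone gene that the liver switches on in fasting and protein restriction, did not meet the criteria at any dose. Its group medians lay between 7.42 and 40.6 CPM, and single rats between 4.32 and 118 CPM. At 1000 mkd in experiment A 4 of 5 rats were below all controls (log2 fold change -0.67, SE 0.39), which met the criteria without treated replicate 3 (-1.12, SE 0.38). At 1500 mkd in males day 8 3 of 5 were above all controls and 1 was below them (0.58, SE 0.28). Females day 8 at 1000 mkd had 23.3 to 56.6 CPM against 10.8 to 39.4 CPM in controls (0.69, SE 0.43). Of 4 FGF receptor genes none passed the test in any set, with log2 fold changes of Fgfr4 from -0.31 to 0.05.

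Atf5, a transcription factor gene of the mitochondrial stress response that is abundant in liver, was the one of the 10 that met the criteria as lower, at 1000 mkd in experiment A. The rats had 275, 171, 372, 297 and 486 CPM and controls 424, 495, 581, 735 and 561 CPM, with 4 of 5 below all controls. The log2 fold change was -0.80 (SE 0.25) and met the criteria, missing them without treated replicate 2 (-0.64), and without replicate 2 or 4 of every group. Without TMM factors the means were 432 and 520 CPM. In experiment B at 1500 mkd the value was -0.11 (SE 0.23) and -0.49 (SE 0.26) in males day 8 and day 29, and 0.06 (SE 0.19) and -0.30 (SE 0.20) in females.

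**Figure D4:**
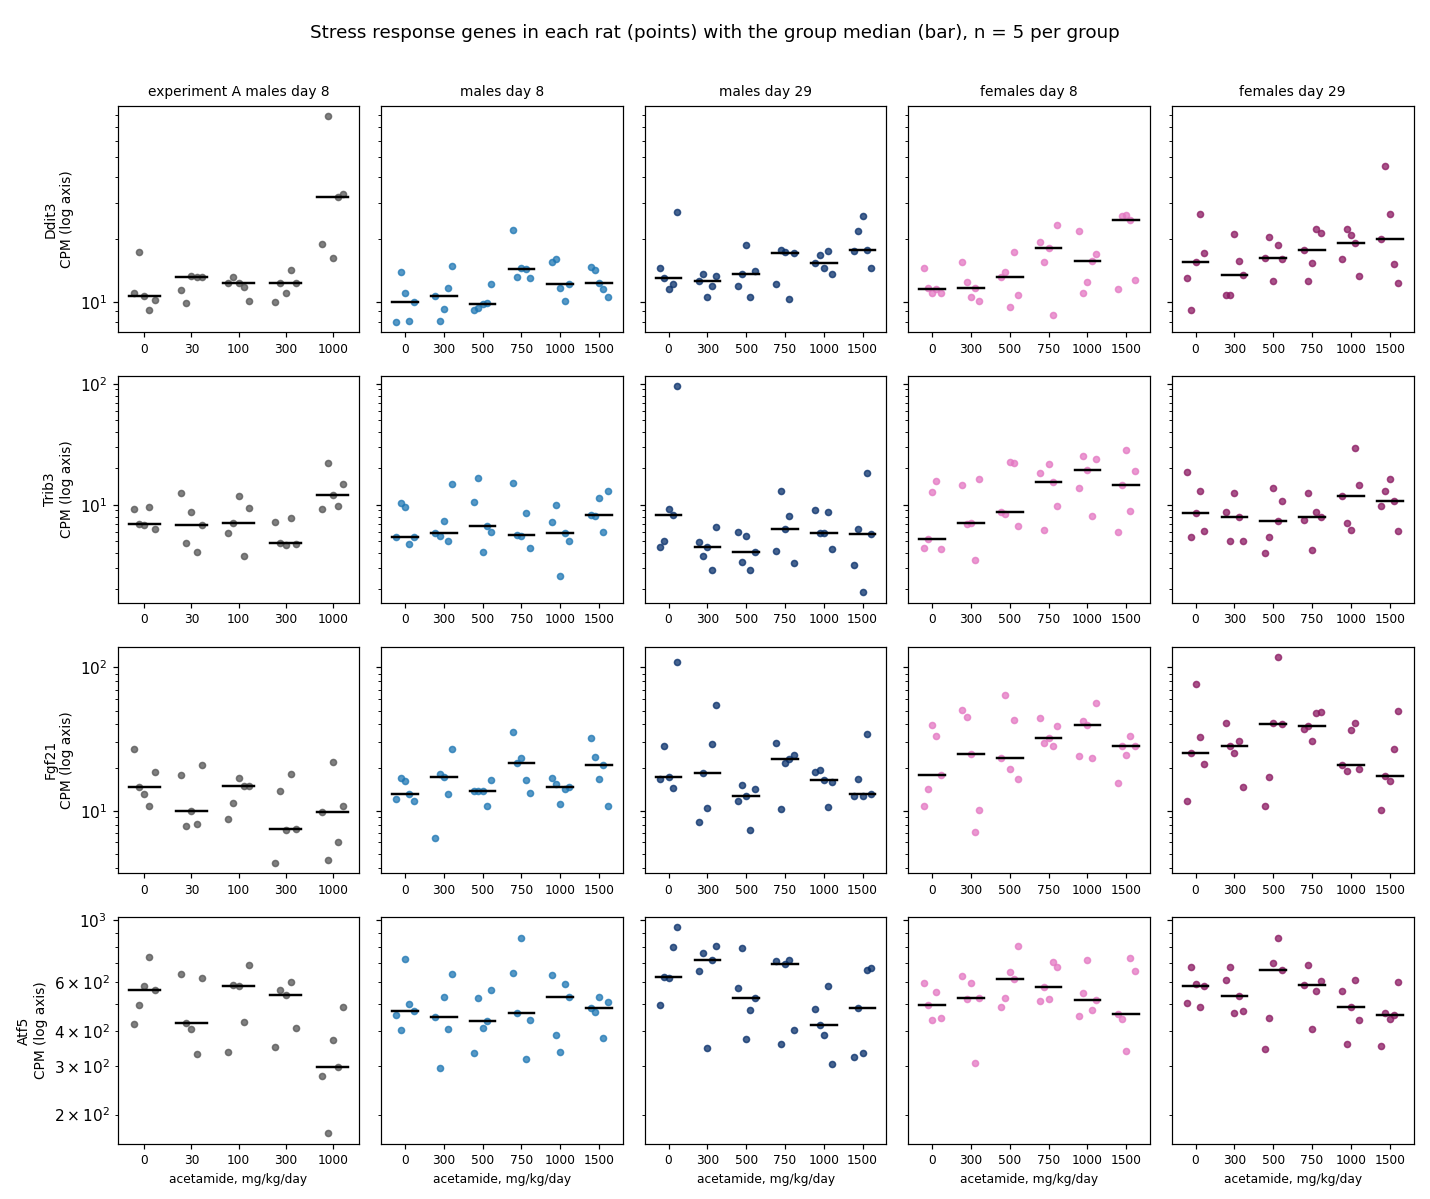
CPM (log axis) of Ddit3, Trib3, Fgf21 and Atf5 in each rat against acetamide dose in mg/kg/day, 1 column per set, with points for rats and bars for medians of 5. In experiment A at 1000 mkd Ddit3 reaches 16.3 to 79.0 CPM and Atf5 falls to 171 to 486 CPM, and the single control rat of males day 29 at 95.2 CPM of Trib3 and 109 CPM of Fgf21 stands out.

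Read together by set, females day 8 was the one in which the 10 genes leaned upward. The genes were picked with these values known, so this is a description and no result about the set is read from it. At 1500 mkd 9 of 10 log2 fold changes were positive with a median of 0.81, and the median of all genes tested was -0.00. The medians of the 10 were 0.20, 0.10, 0.68 and 0.70 from 300 to 1000 mkd. These 5 comparisons share the same 5 control rats. At the highest dose the medians of the other 4 sets were -0.34, -0.08, -0.40 and 0.11 in the order above, with 4, 4, 3 and 6 positive values. In males day 29 control replicate 5 was the highest of its group for 8 of the 10 genes, and in experiment A control replicate 1 for 7. Without the former, the negative values of Trib3, Fgf21, Phgdh and Asns at 1500 mkd shrank or turned, as given above. The medians were not recomputed without these rats.

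The other genes of the pathways came from lists that leave out the 10 genes. Of 34 serine, glycine and folate genes tested in experiment A at 1000 mkd, 3 rose and 13 fell (47.1%), with a median log2 fold change of -0.55. Tyms, which makes thymidylate for DNA, rose most (log2 fold change 1.62, SE 0.26, adjusted p = 0.000196), and with it Sptlc2 (0.93, SE 0.16) and Mthfd2l (0.87, SE 0.30). Ftcd, an enzyme of histidine and folate breakdown, fell from 612 ± 56.9 to 293 ± 95.8 CPM (SD, n = 5), the methionine adenosyltransferase gene Mat1a by 0.92 on the log2 scale, and Aldh1l2 by 0.89, each with all 5 rats below all controls. The call of Mthfd2l was lost in 5 of the 10 fits that left out 1 rat, among them that without replicate 2 at 1000 mkd. TMM factors in experiment A were 1.06 to 1.91 at 1000 mkd and 0.856 to 0.976 in controls. The list genes were not recomputed without these factors, so the part of scaling in their falls was not tested.

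Of 39 ATF4 target genes tested in experiment A, 9 rose and 4 fell, with a list median of -0.08. The glutamine carrier gene Slc1a5 rose from 0.747 ± 0.220 to 3.55 ± 2.28 CPM (log2 fold change 2.25, SE 0.34, adjusted p = 0.000145). Gdf15, a stress hormone gene, rose from 1.65 ± 0.355 to 5.63 ± 2.23 CPM (1.78, SE 0.36, adjusted p = 0.00105), and Jdp2 by 1.31 on the log2 scale, each in 5 of 5 rats. The tRNA synthetase genes Cars (-0.97, SE 0.17) and Eprs (-0.66, SE 0.15) and the aminotransferase gene Gpt2 (-0.86, SE 0.31) fell, the last without its call in 6 of the 10 fits that left out 1 rat. With the eIF2 genes, 30 of 93 list genes tested were called in experiment A (32.3%), beside 21.4% of all genes. The 30 became 18 without replicate 2 at 1000 mkd, 12 without replicate 2 and 16 without replicate 4 of every group. The share of all genes called in these smaller fits was not counted.

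Atf4 itself did not pass the test in any set, with log2 fold changes of -0.17, -0.23, 0.00, 0.09 and -0.32 over the 5 sets and SEs of 0.13 to 0.19. Of 20 eIF2 kinases and regulators 1 rose in experiment A, 2 fell in males day 29 and none passed in the other sets. Eif2ak2, which senses double-stranded RNA and is also an interferon target, rose in experiment A (0.91, SE 0.32, adjusted p = 0.0335) and fell in males day 29 (-0.61, SE 0.19, adjusted p = 0.0497), calls that were lost in 5 and in 8 of the 10 fits without 1 rat. Eif2ak1 fell in males day 29 (-0.70, SE 0.15, adjusted p = 0.0101), with log2 values of -0.28 to -0.55 in the other sets that missed the criteria. Eif2ak3 and Eif2ak4 met them in no set. Translation and phosphorylation were not measured here.

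In females day 29, 1 of 34 serine and folate genes rose and 5 fell. Tyms again rose (1.67, SE 0.26, adjusted p = 0.00015), and Gnmt, Mat1a and the glyoxylate reductase gene Grhpr fell by 0.71, 0.67 and 0.65. Of 38 ATF4 targets 3 rose, Slc7a1 (1.39, SE 0.38), Vldlr (0.99, SE 0.35) and Slc1a5 (0.80, SE 0.27), and Slc6a9 and Hspa9 fell. These shares of 17.6% and 13.2% stand beside 13.1% of all genes. The 11 calls of both lists became 1 without replicate 2 at 1500 mkd, 4 without control replicate 5 and 2 without replicate 1 of every group, and Tyms was the one of those named here whose call held in all 10 fits without 1 rat. In females day 8 the one call in these lists was Aldh1l2, which fell by 0.65 (SE 0.14, adjusted p = 0.0354) and was lost in 8 of the 10 fits without 1 rat. In males day 29 Mtr, Hspa9 and Xpot fell by 0.63, 0.85 and 0.70, and these with the 2 eIF2 kinases made 5 calls, against 3 without control replicate 5. In males day 8 none of 34 serine and 38 ATF4 genes passed edgeR.

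Of 20 genes of the ATF6 and XBP1 branches of the unfolded protein response, none rose in any set, and 3 fell in experiment A (Edem1, Pdia4 and Dnajb9), 3 in males day 29 (Atf6, Sel1l and Ern1) and 1 in females day 29 (Pdia4, -0.90, SE 0.18). Of 9 mitochondrial chaperone and protease genes, 1 rose (Oma1, 0.74, SE 0.16) and 1 fell (Lonp2, -0.79, SE 0.19) in experiment A, and Lonp2 fell in females day 29. The calls of Edem1, Pdia4 and Dnajb9 in experiment A were lost in 8, 5 and 4 of the 10 fits without 1 rat, those of Atf6 and Ern1 in males day 29 in 3 and 1, and that of Lonp2 in females day 29 in 7. Among fasting genes under PPARα, Acot1, which frees fatty acids from coenzyme A, rose in all 5 sets, by 3.29 to 5.10 on the log2 scale. The highest value, in males day 29, rested on replicate 3 at 1500 mkd, with 216 CPM against 0.602 to 11.9 CPM in the other 4 rats and 0.572 to 2.11 CPM in controls, and without it was 1.71 (SE 0.76), which missed the criteria. In females day 8 the call was lost in 7 of the 10 fits without 1 rat. Of the same genes 9 of 18 fell in experiment A, among them Fabp1 (-1.21), Ehhadh (-1.15) and Cpt1a (-0.92). Of 10 p53 targets 4 rose in experiment A, 1 in females day 8 and 2 in females day 29, with Phlda3 among them in each of these sets. Its call in females day 8 (1.58, SE 0.37) was lost in 8 of the 10 fits without 1 rat. Of 26 cell cycle genes 24, 2, 19, 3 and 25 rose over the 5 sets. In males day 29 the 19 became 8 without replicate 3 at 1500 mkd, the rat named above, in experiment A the 24 became 14 without replicate 4 of every group, and in males and females day 8 the counts became 0 to 13 when 1 rat was left out.

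Rats of the same group differed widely in several of the 10 genes. The SD of log2 CPM within groups was 0.90 for Phgdh, at percentile 97.9 of the 11066 genes tested in all sets, 0.75 for Trib3 and 0.72 for Fgf21, while the median gene had 0.30. Psat1, Mthfd2 and Asns lay at percentiles 92.6 to 93.3. Psph (0.26) and Shmt2 (0.20) were below the median gene. Correlations of these deviations with the reads on genes were weak, from -0.16 to 0.19.

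Within groups, the serine genes and Asns went up and down together. Over 145 rats, with each group centered on its mean, Pearson's r was 0.65 between Phgdh and Psat1 (Spearman's rho 0.59), 0.62 between Phgdh and Asns (rho 0.52), 0.61 between Psat1 and Asns (rho 0.59), 0.57 between Psat1 and Mthfd2, 0.55 between Mthfd2 and Asns and 0.40 between Phgdh and Mthfd2 (rho 0.35). Without the 2 rats farthest from the median of the first gene, these 6 values were 0.38 to 0.67. The pair of Phgdh and Asns ranged between sets, from 0.87 in females day 8 to 0.04 in females day 29, and that of Phgdh and Psat1 from 0.40 to 0.71. Rats share libraries, depth and scaling in these values, and they are given without a test.

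The stress genes were not part of that group. Trib3 had r of -0.02 with Phgdh and 0.13 with Psat1, Ddit3 had 0.18 and 0.24, and Fgf21 had its highest value with Atf5 (0.47, from 0.23 to 0.74 in single sets). Shmt2 and Ddit3 went in opposite directions (-0.34), most of all in experiment A (-0.70) and not in males day 8 (0.04), with rho of -0.20 over all rats. Their deviations had r of -0.35 and 0.31 with the TMM factor, and the part of scaling in this value was not tested.

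**Figure D5:**
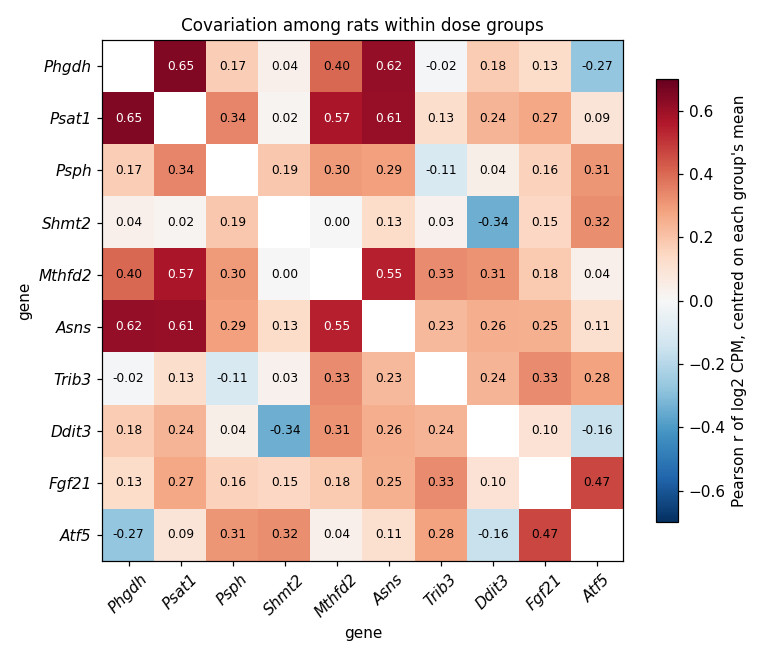
Pearson's r between the log2 CPM of each pair of genes over 145 rats, after each group was centered on its mean, red positive and blue negative. Phgdh, Psat1, Mthfd2 and Asns form a block of values from 0.40 to 0.65, and Fgf21 and Atf5 have 0.47.

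Among the other 11056 genes compared, those most like Asns over the 145 rats, centered on the set mean, were Gars (r = 0.62), Adm2 (0.58), Slc3a2 (0.54), Nars (0.47) and Slc7a1 (0.47). For Phgdh they were Coro6 (0.58), Reep5 (0.58), Akr7a3 (0.57), Mtbp (0.56) and Grb10 (0.55). Trib3 was nearest to Gtpbp2 (0.60), Itpkc (0.58), Maff (0.57), LOC100909675 (0.57) and Tnfaip1 (0.57), and Fgf21 to G0s2 (0.55), Klhdc8a (0.53), Inhbe (0.48), LOC689065 (0.47) and Abhd1 (0.45). These values hold differences between dose groups as well as between rats.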

How the data were processed

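Liver RNA of 145 rats was sequenced as stranded poly(A) libraries with single-end reads. Per the labels and the study's methods, the authors trimmed reads with Trimmomatic, aligned them to the rat Rn6 genome with Bowtie2 and counted reads per gene with HTSeq, and deposited 5 tables of raw counts, 1 per set. Versions and the strand setting are not given in the sources used here. HTSeq summary lines, 35.5% to 67.1% of the total where listed, were left out. Counts were scaled with TMM and tested with edgeR 4.0.16 (quasi-likelihood F-test, filterByExpr, all dose groups of a set in 1 fit, Benjamini-Hochberg adjustment), with DESeq2 1.42.0 as an alternative, in R 4.3.3. A call needed a 1.5-fold change or more together with an FDR of 0.05 or less. Each rat is a separate animal. The genes and pathway lists were chosen with earlier results of these data known. The 10 genes were described in full, and list genes were named as the up to 3 rising and 3 falling calls of each list with the largest change, with Atf4, the eIF2 kinases and Fgfr4 always named, as were the 5 genes most correlated with each of Phgdh, Asns, Trib3 and Fgf21. Tests were checked on simulated counts. Of 290 pairs of rats within groups none had identical counts. Replicate numbers did not pair the rats. Alternatives were another scaling, other filters, a replicate block, fewer groups in the fit and leaving out rats.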

Additional observations from a re-analysis of the deposited data

Results flagged for a closer look

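In 29 of 290 combinations of a gene and a group of 5 rats (the 10 genes in the 29 groups), 1 rat lay far from the other 4 by Dixon's criterion (10%). Chance gives about 1 in 20 for normally distributed values. The criterion was applied to CPM without logs, so no excess over chance is read from this share. The combinations share rats and are not independent. All but 1 of these rats were the highest of their group.

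Control replicate 5 of males day 29 was such a rat for 5 genes, with 11.7 CPM of Phgdh, 5.05 CPM of Psat1, 95.2 CPM of Trib3, 27.1 CPM of Ddit3 and 109 CPM of Fgf21, where the nearest other rats had 3.55, 2.19, 9.20, 14.6 and 28.3 CPM. In the same set at 1500 mkd, replicate 4 had 18.5 CPM of Trib3 and 34.4 CPM of Fgf21, and replicate 3 had 5.96 CPM of Psat1. Replicate 3 at 1000 mkd had 3.66 CPM of Psat1.

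In experiment A, replicate 2 at 1000 mkd had 79.0 CPM of Ddit3 and 6.45 CPM of Asns, next to 33.1 and 2.81 CPM in the nearest rats. Control replicate 2 had 17.4 CPM of Ddit3. Psat1 was at 7.16 CPM in replicate 1 at 30 mkd and at 6.14 CPM in replicate 3 at 100 mkd.

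In females day 8, replicate 5 at 1000 mkd had 8.41 CPM of Psat1 and 8.72 CPM of Asns, replicate 2 at 300 mkd had 2.39 CPM of Phgdh, control replicate 2 had 2.98 CPM of Asns, and control replicate 1 had 14.5 CPM of Ddit3. In females day 29, replicate 1 at 1500 mkd had 1.88 CPM of Phgdh, replicate 3 at 750 mkd had 1.77 CPM of Asns, and replicate 4 at 500 mkd had 118 CPM of Fgf21.

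In males day 8, Phgdh in replicate 3 at 1000 mkd was the one low value, at 2.83 CPM against 7.78 CPM in the nearest rat. The high values of this set were 15.6 CPM of Asns in control replicate 5, 14.7 CPM of Trib3 in replicate 5 at 300 mkd, 12.2 CPM of Ddit3 in replicate 5 at 500 mkd, 22.1 CPM of Ddit3 and 10.9 CPM of Psph in replicates 1 and 3 at 750 mkd, and 174 CPM of Shmt2 in replicate 3 at 1500 mkd.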

How the results depend on the processing

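Of 5717 values recomputed under other settings, 5313 kept their direction and side of the criteria or stayed within the spread, 348 moved, 34 lost and 22 gained a call, and no called value changed sign. With DESeq2, 1 of the 10 genes was called at 1500 mkd in males day 29 and 2 values at its lower doses (0 and 0 by edgeR), and 3 values at the lower doses of females day 8 (0). DESeq2 also called 1 other serine, ATF4 target or eIF2 gene in males day 8, 11 in males day 29 and 4 in females day 8, against 0, 5 and 1. When the fit held just controls and 1 dose group, 0 of the 10 genes was called in females day 8 (1 in the full fit) and 1 in females day 29 (2), 1 value at the lower doses of males day 29 (0), and 0 and 4 other pathway genes in females day 8 and day 29 (1 and 11). Asking for 10 counts in every rat left 0 called in both female sets, since Phgdh, and on day 29 Mthfd2, were then not tested.

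Leaving out rats, the count of the 10 genes called at the highest dose ranged from 1 to 4 in experiment A, 0 to 1 in males day 29, 0 to 2 in females day 8 and 1 to 3 in females day 29. The count of other pathway genes ranged from 12 to 37, 2 to 7, 0 to 4 and 1 to 14 in these sets, and in experiment A it was 16 without replicate 4 of every group and 18 without replicate 2 at 1000 mkd. The sex difference in controls held 3 to 4 genes on day 8 and 1 to 2 on day 29, and the other counts stayed at 0.

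Replicate numbers did not pair the rats, since 110 of 350 same-numbered pairs had a correlation of deviations over 0.1 and 27 of 145 rats were closest to their own number. With the replicate number as a block, 2, 0, 0, 0 and 2 of the 10 genes were called over the 5 sets, with 32, 0, 5, 0 and 9 other pathway genes, and the sex difference held 4 and 1. Depth limits Phgdh and Mthfd2 in females most.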
